A study of Mus musculus with 10 samples.

Results

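The genes described here are the prolactin receptor, STAT5 and Elf5 axis of the mouse mammary gland, 8 genes chosen by name (*Prlr*, *Ghr*, *Jak2*, *Stat5a*, *Stat5b*, *Elf5*, *Socs2* and *Cish*) of the 55487 genes in the count tables. RNA was sequenced from mammary epithelial cells (MECs), purified by removing cells of other lineages, and from mammary macrophages (MACs), selected with antibody to F4/80, both from 10-wk-old diestrus females on a BALB/c background. All mice carried Cebpb fl/fl. CebpbΔM mice also carried Csf1r-Cre, which deletes *Cebpb* in CSF1R-expressing myeloid cells and so does not target MECs, and Cre-negative littermates were the wild-type (WT) group; the labels call the CebpbΔM libraries C/EBPb knockdown. There were 4 MEC libraries (WT 1 and 3, CebpbΔM 1 and 3) and 6 macrophage libraries (WT 4 and 5, CebpbΔM 4, 5, 6 and 7). The labels do not say that libraries came from separate animals, so a *P* value measures the spread between these libraries. The comparisons asked whether loss of C/EBPβ in macrophages went with a change in this axis in either cell preparation, and how the preparations differed from each other.

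Prolactin binds its receptor on luminal cells of the mammary gland, where the kinase JAK2 phosphorylates STAT5A and STAT5B, which enter the nucleus and bind DNA. ELF5, an ETS family factor of luminal progenitor and alveolar cells, works beside STAT5 in alveolar development and milk protein synthesis. Growth hormone uses the same kinase and STAT proteins through its own receptor, and CISH and SOCS2 are feedback inhibitors whose genes are induced by STAT5. In myeloid cells, STAT5 is known to act downstream of receptors such as that of GM-CSF.

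The labels were first checked against marker genes, in CPM (counts scaled to library size) adjusted by the trimmed mean of M-values (TMM). Total counts were 25310926 to 27008166 in MECs and 16935000 to 20174722 in macrophages. In MEC libraries, *Adgre1*, which encodes F4/80, had 0, 0, 13 and 2 counts, and 10 macrophage markers summed to 32.9 to 43.8 CPM. In macrophage libraries, the same markers summed to 8271 and 9355 CPM in WT and 10774 to 15991 CPM in CebpbΔM. However, the macrophage libraries also held epithelial RNA, with 8 of 8 epithelial markers detected in each library. These summed to 9995 CPM in WT 4 and 9862 CPM in WT 5, but to 6579, 5500, 5286 and 6682 CPM in CebpbΔM 4, 5, 6 and 7, compared with 29894 to 37059 CPM in MECs. Hence the 2 macrophage genotypes did not overlap in either marker sum. Fibroblast RNA was present in both preparations, where 7 fibroblast markers summed to 5280 to 6443 CPM in MECs and 3277 to 7645 CPM in macrophage libraries. The targeted gene, *Cebpb*, had 13 and 15 counts in WT macrophages, and 16, 13, 5 and 4 counts in those labeled CebpbΔM. It thus did not separate the labels, and the reason was not tested. In the study, C/EBPβ protein was not detected in cultured bone marrow macrophages of CebpbΔM mice, nor by co-staining in CSF1R-positive gland cells. *Cebpb* had 25 and 28 counts in WT MECs and 69 and 42 counts in CebpbΔM MECs.

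**Figure D1:**
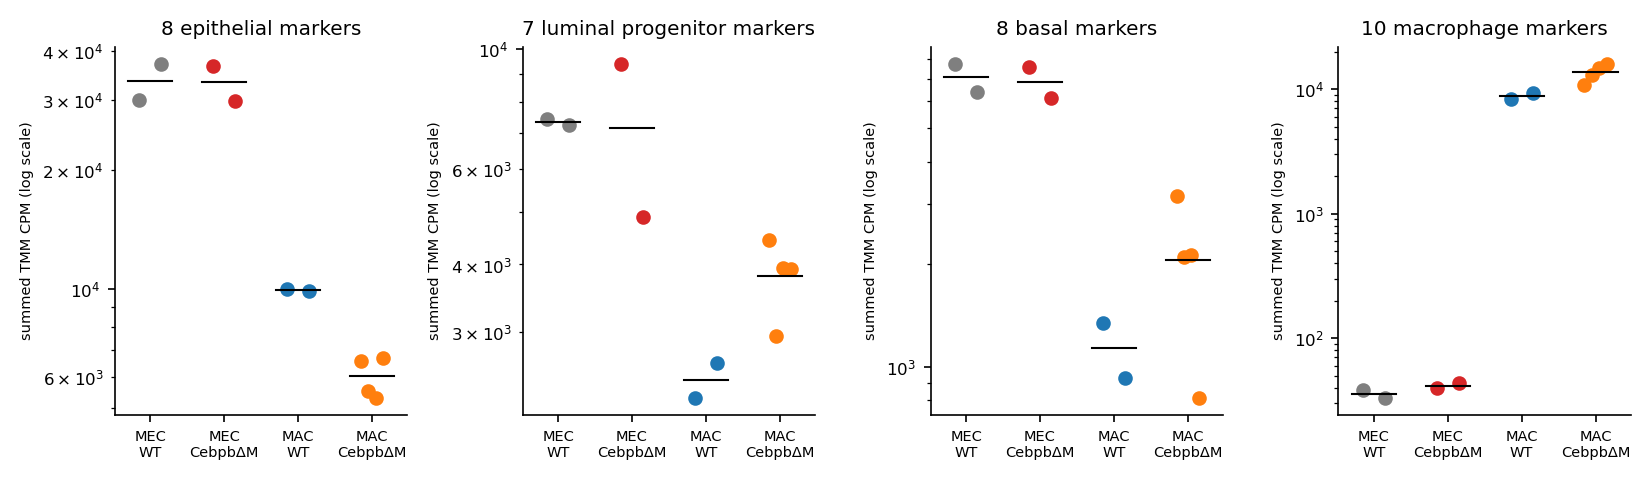
Summed TMM CPM (log scale) of epithelial, luminal progenitor, basal and macrophage markers in each of the 10 libraries, by cell preparation and genotype; points are libraries and bars are group means. Epithelial markers sat between 5286 and 9995 CPM in macrophage libraries, with both WT libraries above the 4 CebpbΔM libraries.

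STAT5 binds the palindrome TTCNNNGAA, so the promoters of the axis were read for these letters, which are the same on both strands. RefSeq promoters on GRCm38.p6, from 250 bases before to 50 bases after a start site, were found for 7 of the 8 genes, with 13 entries in all. Matches were in 2 entries, that of the feedback inhibitor *Cish* and 1 of the *Prlr* entries, which are shown with the motif in capitals. Both are on the plus strand, *Cish* at chr9:107296409-107296708 and *Prlr* at chr15:10223656-10223955.
Cish: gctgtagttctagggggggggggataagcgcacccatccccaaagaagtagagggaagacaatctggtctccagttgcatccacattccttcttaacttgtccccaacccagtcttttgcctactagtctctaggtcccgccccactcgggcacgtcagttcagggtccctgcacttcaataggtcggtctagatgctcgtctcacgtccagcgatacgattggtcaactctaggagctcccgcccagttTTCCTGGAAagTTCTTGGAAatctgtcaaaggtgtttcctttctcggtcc
Prlr: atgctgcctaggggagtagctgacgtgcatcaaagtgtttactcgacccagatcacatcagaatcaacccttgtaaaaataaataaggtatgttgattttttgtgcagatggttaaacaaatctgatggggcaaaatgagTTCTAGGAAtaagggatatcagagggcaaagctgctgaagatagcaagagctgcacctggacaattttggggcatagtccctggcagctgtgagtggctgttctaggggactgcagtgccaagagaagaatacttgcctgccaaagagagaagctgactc
The *Cish* promoter held 2 matches that do not overlap, 1 beginning at the annotated start and the other 11 bases beyond it. The *Prlr* match began 110 bases before that entry's start. Of all 32851 promoters of 300 bases, 8.3% held the motif and 0.457% held at least 2 matches. No member's messenger RNA level says whether STAT5 was bound there.

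Levels were compared between genes per length, as RPKM, which divides TMM-scaled CPM by the exon length given in the count tables. *Prlr* stood above the other 7 genes in every library, at 112.5 to 151.6 RPKM in the 4 MEC libraries and 31.1 to 98.3 RPKM in the 6 macrophage libraries. In MECs, *Stat5a* came next (31.5 ± 13.2 RPKM, SD, n = 4), followed by *Cish* (21.4 ± 5.50), *Elf5* (12.1 ± 2.28), *Stat5b* (11.3 ± 2.15), *Jak2* (6.40 ± 1.54), *Socs2* (4.80 ± 0.681) and *Ghr* (4.27 ± 1.07). The ranges of *Stat5a* and *Cish* overlapped in MECs, as did those of *Elf5* and *Stat5b*, and those of *Jak2*, *Socs2* and *Ghr*. In macrophage libraries, the order was *Prlr*, *Stat5a* (28.3 ± 12.3 RPKM, SD, n = 6), *Stat5b* (18.7 ± 1.83), *Cish* (14.7 ± 4.62), *Jak2* (9.39 ± 2.99), *Elf5* (7.87 ± 5.68), *Socs2* (7.56 ± 2.28) and *Ghr* (3.59 ± 0.402). There, each gene overlapped in range with the next in the order, except that *Ghr* lay below *Socs2*. *Ghr* was lowest in mean RPKM in both preparations.

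**Figure D2:**
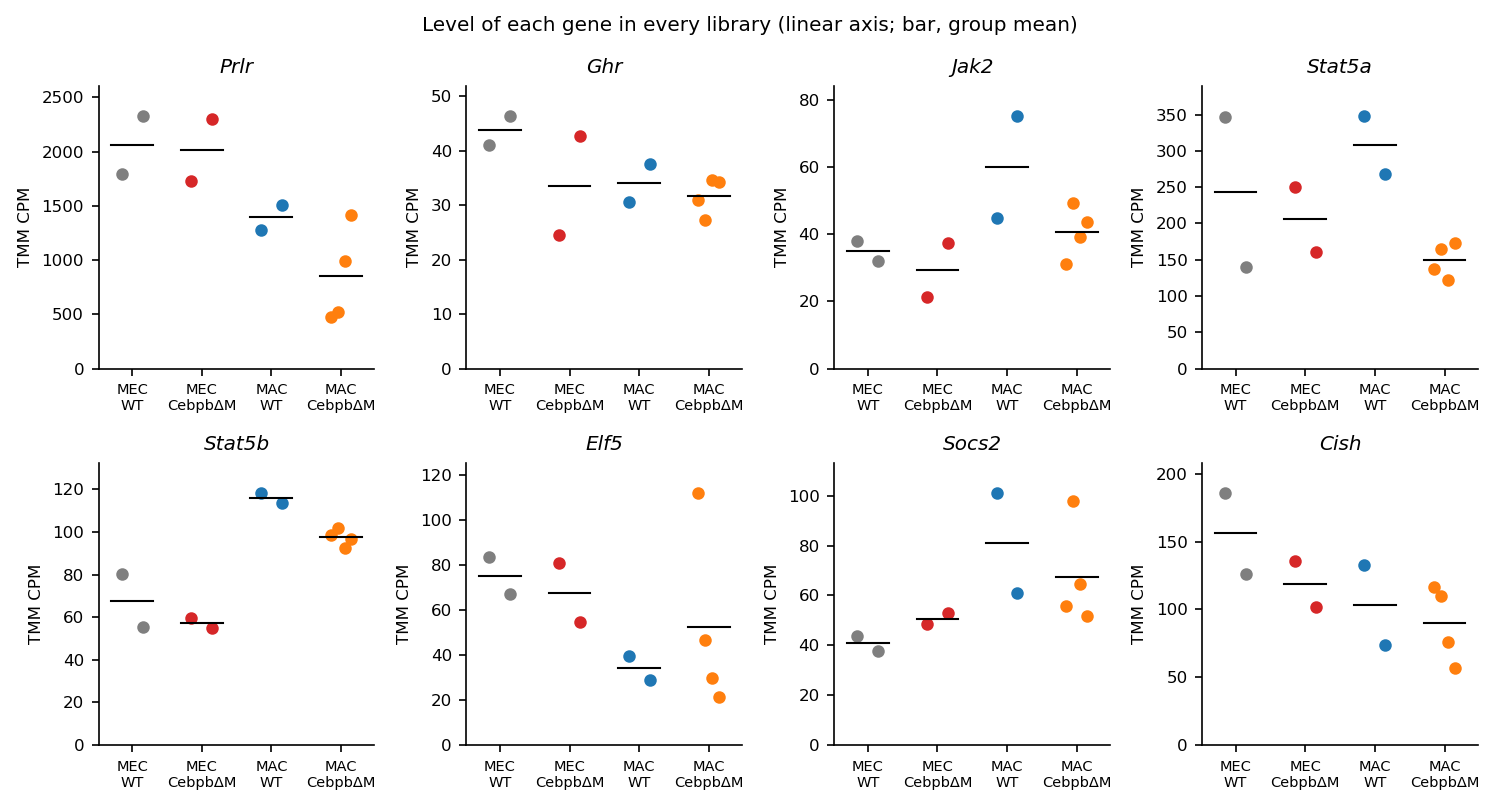
TMM CPM (linear axis from 0, scaled for each gene) of the 8 genes in each of the 10 libraries, by cell preparation and genotype; points are libraries and bars are group means. *Stat5a* was lower in the 4 CebpbΔM macrophage libraries (121 to 173 CPM) than in both WT ones (267 and 348 CPM), and *Elf5* was highest in the macrophage library CebpbΔM 4 (112 CPM).

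All 8 genes passed the filter on low counts in each comparison, and were tested with edgeR's quasi-likelihood (QL) test and Benjamini-Hochberg adjustment over all genes. Between the preparations, 4 of the 8 genes differed at an adjusted *P* of 0.05 or less, where 44.6% of the 18323 genes tested did. *Stat5b*, *Socs2* and *Jak2* were higher in macrophages (3 of 8, against 24.7% of all genes), and *Prlr* was lower (1 of 8, against 19.8%). The 4 MEC and 6 macrophage libraries did not overlap for 2 of 8 genes, *Stat5b* and *Prlr*, as for 36.2% of all genes. Between genotypes in MECs, 0 of 8 genes were called, where 0.051% of 15698 genes were; 0 had an unadjusted *P* under 0.05, and 0 were called by the likelihood ratio test (1.14% of all genes called) or DESeq2 (1.03%). In MECs, 1 of 8 genes had no overlap between the genotypes, compared with 28.2% of all genes. Between genotypes in macrophages, 0 of 8 genes were called and likewise 0% of 17772 genes. *Stat5a* alone had an unadjusted *P* under 0.05 there, and it was called by the likelihood ratio test, which the study's methods name (0.777% of all genes called), and by DESeq2 (1.13% called). Both STAT5 genes (2 of 8) had no overlap between macrophage genotypes, as had 18.6% of all genes. No difference in the genotype effect between the preparations was called for the 8 genes by the QL test (0 called, 0% of 18323 genes; 0 with an unadjusted *P* under 0.05; 0 by the likelihood ratio test, with 0.289% of all genes called, and 0 by DESeq2, with 0.147%). Cell type, isolation method and sequenced set cannot be told apart in the comparison of the preparations, and in bulk libraries fewer cells of a type and less RNA per cell cannot be told apart.

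**Figure D3:**
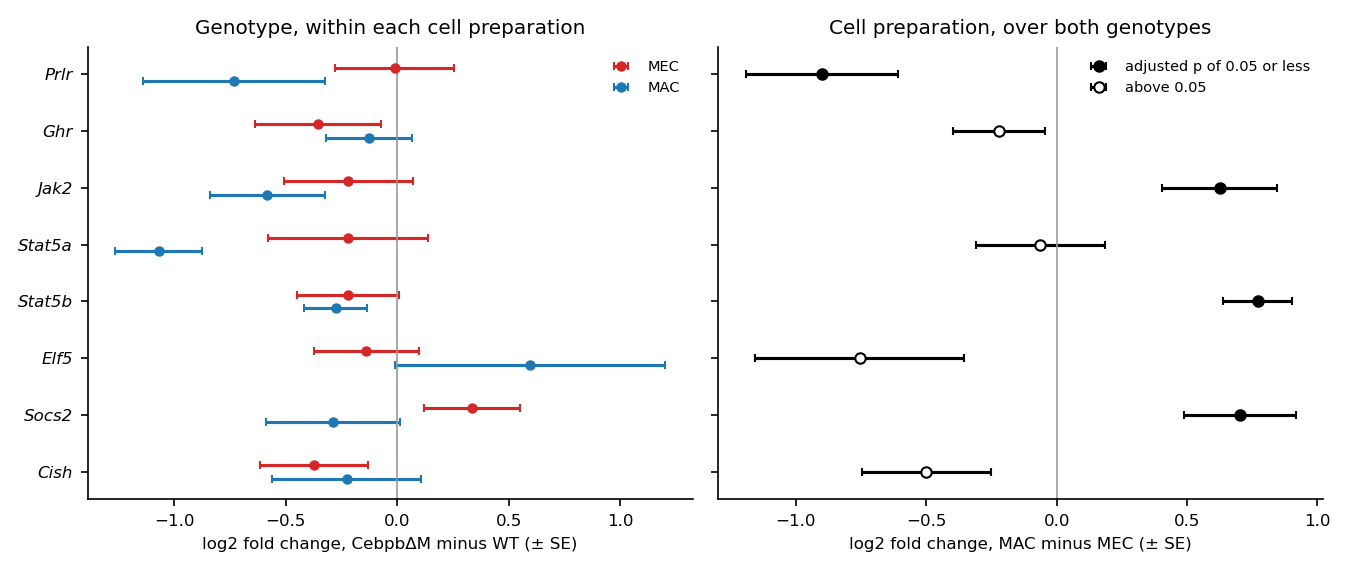
Log2 fold changes (± SE of the edgeR fit) of the 8 genes for CebpbΔM minus WT in MECs and in macrophages (left), and for macrophages minus MECs (right), where filled points have an adjusted *P* of 0.05 or less. *Stat5a* in macrophages was the genotype difference farthest from 0 (-1.07), and *Prlr*, *Jak2*, *Stat5b* and *Socs2* were called between the preparations.

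Of the receptors, *Prlr* (chromosome 15, 10177238 to 10349180, GRCm38) was at 1795 and 2326 CPM in WT MECs and at 1726 and 2301 CPM in CebpbΔM MECs. The MEC genotypes overlapped, with a log2 fold change of -0.01 ± 0.27 (SE; edgeR adjusted *P* = 0.9997). In macrophage libraries, *Prlr* was at 1281 and 1508 CPM in WT 4 and 5, and at 477, 524, 995 and 1417 CPM in CebpbΔM 4 to 7. Thus, CebpbΔM 4 and 5 were low, and CebpbΔM 7 lay between the WT libraries (log2 fold change -0.73 ± 0.41, edgeR adjusted *P* = 0.661). Hormone-sensing luminal markers (6 genes, *Esr1*, *Pgr*, *Foxa1*, *Prom1*, *Cited1* and *Areg*) summed to 306, 355, 405 and 600.1 CPM in CebpbΔM 4 to 7 and to 706 and 649 CPM in WT 4 and 5, an order close to that of *Prlr*; their part in the *Prlr* values was not tested. *Prlr* was 0.536-fold in macrophages relative to MECs (log2 fold change -0.90 ± 0.29, edgeR adjusted *P* = 0.0271). This call was lost with the WT libraries alone (-0.56, edgeR adjusted *P* = 0.388), and without MEC CebpbΔM 3 (adjusted *P* = 0.0896), MEC WT 3 (0.0918), MAC WT 4 (0.0893) or MAC WT 5 (0.0639). An overlapping gene on the same strand, *Gm21973*, had at most 1 count in any library.

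*Ghr*, the growth hormone receptor (chromosome 15, 3317760 to 3583492), was at 41.2 and 46.3 CPM in WT MECs and 24.5 and 42.6 CPM in CebpbΔM MECs. It was at 30.6 and 37.6 CPM in WT macrophages and at 30.9, 27.3, 34.6 and 34.3 CPM in CebpbΔM macrophages. Both pairs of genotypes overlapped, and *Ghr* did not pass the test in any comparison (log2 fold change -0.22 ± 0.18 for macrophages minus MECs, edgeR adjusted *P* = 0.334). The ratio of *Prlr* to *Ghr* RPKM was 25.7 to 41.5 in MECs, 24.7 and 23.7 in WT macrophages, and 9.11, 11.3, 16.98 and 24.4 in CebpbΔM macrophages 4 to 7. The lowest ratios were thus those of the libraries with the lowest *Prlr*.

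*Jak2*, the kinase bound to both receptors (chromosome 19, 29251828 to 29313080), was at 38.0 and 32.0 CPM in WT MECs and at 21.3 and 37.6 CPM in CebpbΔM MECs. In macrophages, it was at 44.9 and 75.2 CPM in WT and at 31.1, 49.3, 39.1 and 43.8 CPM in CebpbΔM. The macrophage genotypes overlapped through CebpbΔM 5 (log2 fold change -0.58 ± 0.26, edgeR adjusted *P* = 0.583). *Jak2* was 1.54-fold higher in macrophages than in MECs (log2 fold change 0.63 ± 0.22, edgeR adjusted *P* = 0.0386). Of the 4 calls between preparations, this one was lost in the most alternatives. The adjusted *P* was 0.0503 with relative log expression (RLE) scaling and 0.109 in the WT groups alone. It was 0.147 without MEC CebpbΔM 1, 0.0703 without MEC WT 1, 0.127 without MEC WT 3, 0.0568 without MAC CebpbΔM 5, 0.0520 without MAC CebpbΔM 7 and 0.144 without MAC WT 5.

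*Stat5a* and *Stat5b* encode the 2 STAT5 proteins and are neighbors on chromosome 11 (*Stat5a*, 100859351 to 100885169; *Stat5b*, 100780731 to 100850724). Their sequences are alike, so the mapping quality minimum of 10 used in counting can leave out read pairs that fit both. *Stat5a* was at 346 and 139.8 CPM in WT MECs and 250.3 and 161 CPM in CebpbΔM MECs. The MEC WT libraries bracketed the CebpbΔM ones (log2 fold change -0.22 ± 0.36, edgeR adjusted *P* = 0.9997). In macrophages, *Stat5a* was at 348 and 267 CPM in WT and at 137, 165, 121 and 173 CPM in CebpbΔM. Each of the 4 CebpbΔM libraries was below both WT libraries. The CebpbΔM level was 0.477-fold that of WT, a log2 fold change of -1.07 ± 0.20, with an unadjusted edgeR *P* of 5.58e-04, which ranked 13 among the 17772 genes tested. The adjusted *P* was 0.452 by the QL test, 0.00264 by the likelihood ratio test and 0.00129 by DESeq2, and ranged from 0.00129 to 0.797 over 15 alternatives, where the log2 fold change was -1.24 to -0.87. Without CebpbΔM 4, which stood apart in milk protein genes, it was -1.03 (edgeR adjusted *P* = 0.397).

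Of the epithelial markers, 8 of 8 had a negative log2 fold change in CebpbΔM macrophage libraries, with a median of -0.61 beside 0.00 for all genes tested, and of the macrophage markers 10 of 10 had a positive one, with a median of 0.60. The QL test called 0 genes of either list, and 3 of 8 epithelial and 6 of 10 macrophage markers had an unadjusted *P* under 0.05, as had 8.63% of all genes. The likelihood ratio test and DESeq2 each called the luminal keratins *Krt8* and *Krt18* lower, and they called 1 (*C1qc*) and 2 (*C1qa* and *C1qc*) macrophage markers higher. Within the epithelial list, the keratin *Krt8* had a log2 fold change of -0.89 ± 0.14 and the adhesion gene *Epcam* -0.11 ± 0.31. Hormone-sensing luminal markers were negative in 6 of 6 (median -0.55), whereas basal markers were positive in 8 of 8 (median 0.83), with 0 of either list called by the QL test and 1 and 0 with an unadjusted *P* under 0.05. The sums of the epithelial and macrophage markers separated the same libraries as *Stat5a* did, and their part in the *Stat5a* difference was not tested. In the MEC libraries, *Stat5a* spanned 139.8 to 346 CPM, WT macrophages were at 348 and 267 CPM, and the macrophage-minus-MEC difference was -0.06 ± 0.25 (edgeR adjusted *P* = 0.856). The genotype difference in macrophages minus that in MECs was -0.80 ± 0.49 for *Stat5a* (edgeR adjusted *P* = 0.990, unadjusted *P* = 0.132). It was -1.60 without MEC WT 1 and -0.29 without MEC WT 3, and was not called in either. *Stat3*, a gene on the opposite strand that meets the end of *Stat5a*, was at 850.3 and 799.6 CPM in WT macrophages and at 857, 794, 978 and 694 CPM in CebpbΔM macrophages, without a separation of the genotypes.

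*Stat5b* was at 80.1 and 55.4 CPM in WT MECs and 59.5 and 55.0 CPM in CebpbΔM MECs. In macrophages, it was at 118 and 114 CPM in WT and at 98.6, 102, 92.7 and 96.6 CPM in CebpbΔM. The genotypes did not overlap in macrophages, but the difference was small and was not called (log2 fold change -0.28 ± 0.14, edgeR adjusted *P* = 0.640). All 6 macrophage libraries were above all 4 MEC libraries. *Stat5b* was 1.71-fold higher in macrophages (log2 fold change 0.77 ± 0.13, edgeR adjusted *P* = 7.57e-04), and this call was kept in 16 of 16 alternatives, with log2 fold changes of 0.65 to 0.91 and adjusted *P* values of 8.79e-07 to 0.0153.

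The balance of the STAT5 genes therefore differed among libraries as a description, with no test. *Stat5a* RPKM was 3.36 and 1.96 times that of *Stat5b* in WT MECs, and 3.27 and 2.27 times in CebpbΔM MECs. It was 2.28 and 1.83 times in WT macrophages, but 1.08, 1.26, 1.02 and 1.39 times in CebpbΔM macrophages. The 4 CebpbΔM macrophage libraries had the lowest ratios of the 10 libraries, at 1.02 to 1.39.

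**Figure D4:**
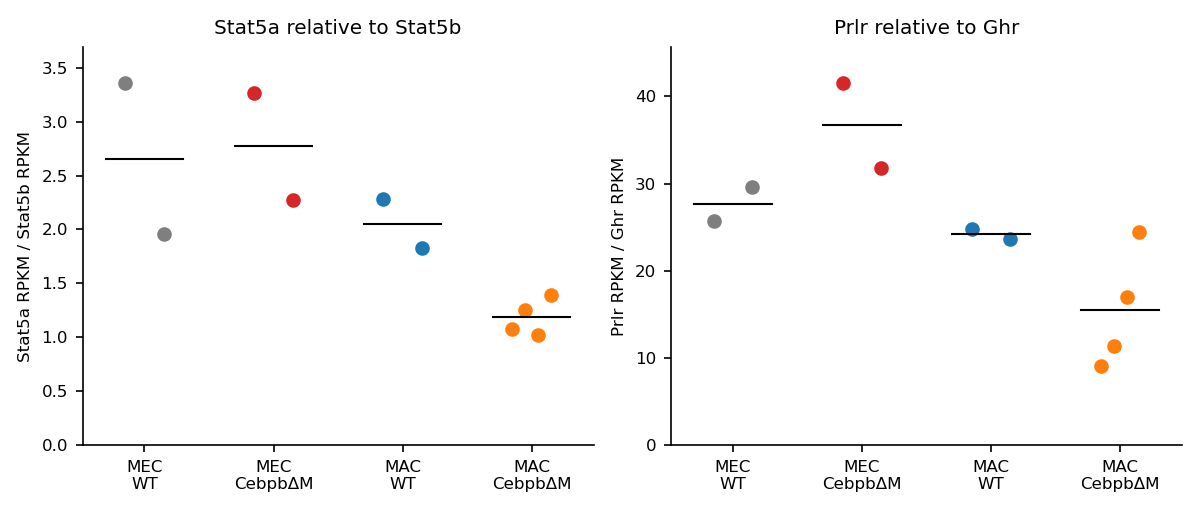
Ratio of *Stat5a* to *Stat5b* RPKM (left) and of *Prlr* to *Ghr* RPKM (right) in each of the 10 libraries, by cell preparation and genotype, on linear axes from 0; points are libraries and bars are group means. The *Stat5a* to *Stat5b* ratio was 1.02 to 1.39 in CebpbΔM macrophages and 1.83 to 3.36 in the other 6 libraries.

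*Elf5*, the luminal progenitor and alveolar factor (chromosome 2, 103411688 to 103450989), was at 83.4 and 67.0 CPM in WT MECs and 80.7 and 54.4 CPM in CebpbΔM MECs. These genotypes overlapped (log2 fold change -0.14 ± 0.24, edgeR adjusted *P* = 0.9997). In macrophages, *Elf5* was at 39.5 and 28.6 CPM in WT and at 112, 46.4, 29.7 and 21.2 CPM in CebpbΔM 4 to 7. CebpbΔM 4 was above every MEC library, whereas CebpbΔM 7 was the lowest of all 10. The log2 fold change of 0.60 ± 0.61 (edgeR adjusted *P* = 0.848) turned to -0.09 without CebpbΔM 4 (adjusted *P* = 0.977). The milk protein gene *Csn2*, chosen after its values were seen, had 4685, 344, 10 and 0 counts in CebpbΔM 4 to 7 and 0 and 1 counts in WT macrophages, and 8 basal markers summed to 3180.0, 2105, 2127 and 811 CPM in CebpbΔM 4 to 7 and to 1345 and 931 CPM in WT. The 7 luminal progenitor markers summed to 4432, 2945, 3932 and 3923 CPM and to 2264 and 2627 CPM in the same libraries. Most of this came from *Trf*, the transferrin gene, without which the other 6 summed to 1626, 1064, 1154 and 1259 CPM in CebpbΔM 4 to 7 and to 1067 and 1102 CPM in WT 4 and 5. Their part in the *Elf5* values was not tested. Between the preparations, *Elf5* did not pass the test (macrophages minus MECs -0.76 ± 0.40, edgeR adjusted *P* = 0.149), but without CebpbΔM 4 it was lower in macrophages (-1.07, adjusted *P* = 0.00405). That was the 1 call of *Elf5* in 16 alternatives, over which the adjusted *P* reached 0.353.

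Of the feedback inhibitors, *Cish* (chromosome 9, 107296026 to 107302784), whose promoter held the 2 motifs shown above, was at 186 and 126 CPM in WT MECs and 136 and 102 CPM in CebpbΔM MECs. In macrophages, it was at 133 and 74.0 CPM in WT and at 117, 110.0, 76.0 and 56.8 CPM in CebpbΔM. The genotypes overlapped in both preparations. *Cish* did not pass a test, with log2 fold changes of -0.37 ± 0.24 between MEC genotypes (edgeR adjusted *P* = 0.9997), -0.23 ± 0.33 between macrophage genotypes (0.904) and -0.50 ± 0.25 between preparations (0.122). The antisense gene *Gm17041* lies within *Cish* and its count was 37.2% to 43.8% of that of *Cish* in each library. Counting used read strand, but whether the library kit keeps it is not given in the sources used here, so reads of the 2 genes may not be separate.

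*Socs2* (chromosome 10, 95385362 to 95417180), the inhibitor best known from growth hormone signaling, was at 43.8 and 37.8 CPM in WT MECs and 48.5 and 52.9 CPM in CebpbΔM MECs. It was the 1 gene of the 8 whose MEC genotypes did not overlap, with a log2 fold change of 0.34 ± 0.21 that was not called (edgeR adjusted *P* = 0.9997). In macrophages, *Socs2* was at 101 and 61.1 CPM in WT and at 55.9, 97.8, 64.5 and 51.9 CPM in CebpbΔM, which overlapped (log2 fold change -0.29 ± 0.30, edgeR adjusted *P* = 0.854). *Socs2* was 1.63-fold higher in macrophages than in MECs (log2 fold change 0.70 ± 0.21, edgeR adjusted *P* = 0.0203). It was not called without MEC CebpbΔM 1 (adjusted *P* = 0.0709), MEC WT 3 (0.0772) or MAC WT 4 (0.0740). The STAT5 target genes *Cish* and *Socs2* thus had opposite signs between the preparations, and *Cish* did not pass the test.

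The other genes of the pathway were described by lists of genes, with counts to be read against the 24.7% of all genes called higher and the 19.8% called lower in macrophages. The ligand genes *Prl*, *Gh*, *Prl3b1* and *Prl3d1* had at most 12 counts in any library and were not tested. Of 8 other JAK and STAT genes, 7 were tested. Between preparations, 6 were higher in macrophages and 1 was lower, with a median log2 fold change of 0.70 beside 0.05 for all genes. *Tyk2*, a kinase of cytokine receptors, was 1.22 ± 0.16 higher on the log2 scale (edgeR adjusted *P* = 1.43e-04) and *Jak3*, the kinase of the common γ chain, 1.07 ± 0.18 higher (7.50e-04).

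Among 13 other receptors that signal through STAT5, 11 were tested. Of these, 4 (*Csf3r*, *Epor*, *Il2ra* and *Il7r*) were above 1 CPM in macrophage libraries only and passed the filter through them, so that their direction was not open to the test. The other 7 were above 1 CPM in both preparations, and 7 of 7 were called higher in macrophages (24.7% of all genes). Markers of some other cells were higher there too. Endothelial markers, of which 5 of 5 were called higher, summed to 661 to 1494 CPM in macrophage libraries and 55.4 to 82.7 CPM in MECs. Dendritic cell markers (6 genes) summed to 161 to 501 CPM and 3.35 to 6.70 CPM, and granulocyte and mast cell markers (10 genes) to 25.9 to 63.3 CPM and 0.608 to 0.928 CPM, respectively. Fibroblast markers (7 genes) overlapped between the preparations, at 3277 to 7645 CPM in macrophage libraries and 5280 to 6443 CPM in MECs. Of these, 2 of 7 were called higher in macrophages and 0 lower. The part of these other cells in the receptor levels was not tested. *Il2rg*, the common γ chain, was at 1.54 to 2.18 CPM in MECs and 41.0 to 73.1 CPM in macrophages (log2 fold change 4.98 ± 0.25, edgeR adjusted *P* = 6.86e-08). *Epor*, the erythropoietin receptor, was at 0.405 to 0.542 CPM and 14.5 to 25.6 CPM, respectively. *Csf3r*, the G-CSF receptor, had at most 2 counts in a MEC library and 361 to 756 counts in macrophages.

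Of 6 other SOCS genes, *Socs3* was higher in macrophages (log2 fold change 0.44 ± 0.16, edgeR adjusted *P* = 0.0491), *Socs5* was lower (-1.71 ± 0.31, adjusted *P* = 0.00113), and 4 did not pass. Of 12 phosphatases, PIAS proteins and other JAK-STAT regulators, 4 were higher and 3 lower, near the shares of all genes. The myeloid phosphatase gene *Ptpn6* was 2.06 ± 0.15 higher on the log2 scale (adjusted *P* = 1.44e-06), *Sh2b3*, an adaptor that restrains JAK2, 1.92 ± 0.18 higher (7.71e-06), and the phosphatase gene *Ptpn2* was lower, with a log2 fold change of -1.29 ± 0.14 (2.66e-05). Of 8 other reported STAT5 targets, 7 were above 1 CPM in both preparations, of which 2 were higher. *Osm*, the cytokine oncostatin M, passed the filter through macrophage libraries only, with 0 to 3 counts in MECs and 466 to 960 counts in macrophages. *Igf1* was 3.19 ± 0.25 higher on the log2 scale (adjusted *P* = 2.29e-06) and the kinase gene *Pim1* 0.74 ± 0.18 higher (0.00558).

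Milk protein genes had 6 of 8 members tested, of which 2 were lower in macrophages, *Csn3* (-2.31 ± 0.45 on the log2 scale, edgeR adjusted *P* = 0.00165) and *Lalba* (-2.53 ± 0.51, 0.00204), and 4 did not pass. Of 6 other ELF and epithelial ETS factors, the epithelial *Elf3* was lower (-2.10 ± 0.18, adjusted *P* = 5.22e-06), *Elf4* was higher (2.15 ± 0.25, 4.36e-05), and 4, like *Elf5*, did not pass. Of 10 luminal and alveolar regulators, *Cebpb* passed the filter through MEC libraries only. Of the other 9, 2 were lower and 1 was higher: *Runx1* (-1.02 ± 0.16, 3.78e-04) and the progesterone receptor gene *Pgr* (-1.17 ± 0.28, 0.00581) were the lower genes and *Id2* was the higher one (0.56 ± 0.14, 0.00823).

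Between genotypes, 0 genes of these 8 lists were called by the QL test in either preparation. In MECs, 8 of 59 list entries tested had an unadjusted *P* under 0.05 (5.42% of all genes), and 1 of the 8, *Csn2*, was above 1 CPM in CebpbΔM libraries only. The likelihood ratio test called 1, *Pim1*, and DESeq2 called 2, *Pim1* and *Sh2b3*, named after their values were seen, where these tests called 1.14% and 1.03% of all genes. *Pim1* was at 47.3 and 49.2 CPM in WT MECs and at 124 and 79.8 CPM in CebpbΔM MECs (log2 fold change 1.09 ± 0.24, edgeR adjusted *P* = 0.141). *Sh2b3* was at 11.5 and 12.2 CPM in WT MECs and at 25.1 and 21.7 CPM in CebpbΔM MECs (0.9997 ± 0.249, adjusted *P* = 0.231). In macrophages, 6 of 65 entries had an unadjusted *P* under 0.05 (8.63% of all genes), and 0 were called by the likelihood ratio test or DESeq2. These 6 were *Socs5*, *Spdef* and 4 milk protein genes. Of the 6 milk protein genes tested there, 4 (*Csn1s2a*, *Csn2*, *Glycam1* and *Lalba*) were above 1 CPM in CebpbΔM libraries only and passed the filter through them, so that their sign was not open to the test. The other 2, *Csn1s1* and *Csn3*, had edgeR adjusted *P* values of 0.597 and 0.959.

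Finally, genes with the most similar pattern were sought by Pearson's *r* of log2 CPM over the 10 libraries, among 18322 other genes, as a description. The points share libraries, cell preparation and scaling. For *Prlr* these were *Gipc2* (r = 0.98), *D630002J18Rik* (0.97) and *Vtcn1* (0.96), with r of 0.99, 0.99 and 0.99 over the 6 macrophage libraries but 0.60, 0.58 and -0.09 over the 4 MEC libraries. *Stat5a* was most like *Acads* (0.93), *Wipi1* (0.93) and *Rpn1* (0.92), and *Stat5b* was most like *Cit* (0.98), *Ssc5d* (0.97) and *Nynrin* (0.97). For *Elf5* they were *Ldhb* (0.98), *5430405H02Rik* (0.97) and *Fads2* (0.96). *Cish* was most like its antisense gene *Gm17041* (0.99), then *Plscr3* (0.96) and *Wdr6* (0.95). *Jak2* was most like *Phf8* (0.96), *Gm37494* (0.96) and *Gm49266* (0.95), *Ghr* like *Gm43085* (0.92), *Man1a* (0.92) and *Mtss1* (0.88), and *Socs2* like *4930579G24Rik* (0.93), *Gm12500* (0.93) and *Ldlrad3* (0.90). With *Socs2*, *4930579G24Rik* had r of -0.08 over the 4 MEC libraries and 0.94 over the 6 macrophage libraries. Over the MEC libraries, r was 0.84 for *Gm12500* and 0.97 for *Ldlrad3*. No member was among the 3 genes most like another member.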

How the data were processed

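RNA was sequenced from 4 MEC and 6 macrophage libraries made with a low-input kit. The authors trimmed reads with Trimmomatic, mapped them to GRCm38 with HISAT2 and counted read pairs on Ensembl release 100 with featureCounts (version 1.6.2; both ends mapped, mapping quality of at least 10, strand setting 2). The authors deposited these as raw counts, not normalized, which are whole numbers for each gene. The command in the header of the MEC table also names libraries numbered 2, which were not analysed here. Symbols were matched for 55141 of 55487 genes.

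From the counts, an exon length of 300 nt was required (8951 genes fell below it), and a gene entered a fit if 2 or more of its libraries exceeded 1 CPM. Groups followed the labels. Genotype was compared in each preparation, and the preparations and the interaction were compared over 10 libraries, with edgeR (version 4.0.16, R version 4.3.3) by its quasi-likelihood test, TMM scaling and Benjamini-Hochberg adjustment over all genes, at a threshold of 0.05. SE is the log2 fold change divided by the square root of the F statistic. The likelihood ratio test of the study's methods was an alternative, as were DESeq2 (version 1.42.0), RLE scaling, other filters, a replicate block, other sets of libraries and each library left out. In macrophages, the study reported more genes at an adjusted *P* under 0.05 than the likelihood ratio test called here. Log2 CPM used a prior count of 2. Scripts were tested on simulated data. Figures used matplotlib (version 3.10.9).

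The 8 members, the lists and the tests were chosen with earlier results of these data known. All members were named, with the 3 smallest *P* values among called genes of each list, and the 3 genes most like each member. A gene that this rule names is not reported here. The labels do not say whether a shared replicate number marks a shared animal, litter or batch. The check used showed little pairing by number (r of deviations 0.11 in MECs and 0.04 in macrophages). With 2 pairs in each, it cannot exclude pairing. Fits with a replicate block, given below, called other numbers of genes.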

Additional observations from a re-analysis of the deposited data

How the results depend on the processing

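In MECs, the number of genes called (8) was 179 by the likelihood ratio test, 161 by DESeq2, 38 without a filter beyond 1 count, 205 with the replicate block and 0 in the fit of all 10 libraries, and 2 to 337 with a library left out (42 without CebpbΔM 1, 337 without CebpbΔM 3, 98 without WT 1, 2 without WT 3), while 0 of the 8 axis genes were called in each of these. In macrophages, the number called (0) was 138 by the likelihood ratio test, 201 by DESeq2, 12 with the replicate block and 455 with the block and the likelihood ratio test, an alternative added after seeing the data. Axis genes called there were 1 (*Stat5a*) by the likelihood ratio test, 1 (*Stat5a*) by DESeq2, 1 with the replicate block (*Prlr*, log2 fold change -1.50, edgeR adjusted *P* = 0.0302) and 3 with the block and the likelihood ratio test (*Prlr*, *Stat5a* and *Elf5*); with the block, CebpbΔM 6 and 7 have no partner and do not enter the genotype difference. Between preparations, 4664 genes and 2 axis genes (*Stat5b* and *Socs2*) were called in the WT groups only, and 1 to 5 axis genes were called with a library left out (1 without MEC WT 3, and 2 without MEC CebpbΔM 1, MAC WT 4 or MAC WT 5). The interaction called 53 genes by the likelihood ratio test, 27 by DESeq2, 1 with the replicate block and 0 to 1 with a library left out (1 without MEC WT 3), with 0 axis genes in each.

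The sign turned for *Prlr* in MECs with filterByExpr (0.0086), for *Cish* in macrophages with the replicate block (0.17), replicates 4 and 5 only (0.12) and the block with the likelihood ratio test (0.17), for *Stat5a* between preparations in the WT groups (0.34) and for *Stat5b* in the interaction with the replicate block (0.0102); none of these was called. With a library left out, the log2 fold changes that changed sign or call, or moved by over 1.5 times, were as follows. In MECs they ranged from -0.26 to 0.22 for *Prlr*, -0.84 to 0.0073 for *Ghr*, -0.72 to 0.15 for *Jak2*, -0.71 to 0.56 for *Stat5a*, -0.44 to 0.055 for *Stat5b*, -0.42 to 0.10 for *Elf5* and -0.60 to -0.079 for *Cish*. In macrophages, they ranged from -0.27 to 0.033 for *Ghr*, -0.093 to 0.85 for *Elf5*, -0.61 to 0.12 for *Socs2*, -0.59 to 0.25 for *Cish* and -0.91 to -0.16 for *Jak2*. Between preparations, they were -1.05 to -0.78 for *Prlr*, -0.39 to 0.0036 for *Ghr*, 0.44 to 0.86 for *Jak2*, -0.32 to 0.33 for *Stat5a*, -1.07 to -0.60 for *Elf5*, 0.53 to 0.89 for *Socs2* and -0.71 to -0.29 for *Cish*. In the interaction, they were -0.064 to 0.73 for *Ghr*, -0.67 to 0.16 for *Jak2*, -0.30 to 0.23 for *Stat5b*, -0.21 to 0.64 for *Cish*, -1.60 to -0.29 for *Stat5a*, -1.07 to -0.45 for *Prlr*, 0.053 to 1.09 for *Elf5* and -0.93 to -0.20 for *Socs2*. Where an arm kept 1 library, that library was assumed to vary like the others. No paired fit between preparations was possible because they share no replicate numbers. The cause of these changes was not tested.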
